A study of Mus musculus with 26 samples.

Results

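The comparison described here is that of wild-type cortical nuclei after maternal immune activation (MIA) with wild-type cortical nuclei after saline, in embryos of E15.5 (embryonic day). Its members are the 4 libraries labelled wild-type among the 8 single-nucleus libraries of a series of 26, and were chosen from the labels alone: 2 libraries after MIA and 2 after saline. Pregnant mice were injected at E12.5 with poly(I:C), which imitates the double-stranded RNA of a virus, or with saline. The prospective somatosensory cortex of male C57Bl/6N embryos was dissected at E15.5 and frozen, tissue was digested with papain, and nuclei were sorted on their Hoechst stain and counted with a 3′ droplet kit. The 4 libraries labelled Csf1r-null, 2 after saline and 2 after MIA, are labelled as embryos without the receptor CSF1R, on which microglia depend. They entered the fit, and their values are given only beside those of the wild type. A library held 1 or 2 embryos, and the labels do not tie libraries to dams. The study describes the wild-type embryos as littermates of the null ones, and reports fewer dams than there are nuclei libraries. Some of the nuclei libraries therefore share a dam, and which of them do is not given in the labels. The fits had no term for the dam, so that p-values measure the spread between libraries and not between dams. Treatment acts on the dam, and a library cannot tell a response of the dam or placenta from one of the embryo.

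The question was which genes differed in cortical nuclei 3 days after the maternal injection. Poly(I:C) is sensed by TLR3 and by cytosolic RNA receptors, and raises interferons and cytokines in the dam. In the fetal cortex at this stage, apical progenitors divide at the ventricle, intermediate progenitors divide once more, and young neurons migrate outwards and extend axons. The transcripts described first belong to housekeeping machinery: the proteasome, which degrades ubiquitin-tagged proteins, the respiratory chain, which makes ATP in mitochondria, and the chaperones, which fold new proteins. A nucleus holds mainly unspliced and newly made RNA, and finished messenger RNA of these short genes lies mostly in the cytoplasm.

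Barcodes with at least 500 unique molecular identifiers (UMIs) and 200 genes were taken as nuclei, and their UMIs were summed per library. Saline 1, MIA 1, saline 2 and MIA 2 held 4691, 6083, 4652 and 5311 nuclei, with 12949108, 17605575, 12055377 and 11162049 UMIs. The median nucleus held 1880 to 2517 UMIs in these libraries, and any pair of the 8 libraries shared 0 to 14 barcodes, at most 0.258% of the smaller. The sum of all nuclei has a limit throughout: fewer nuclei of a type and less RNA per nucleus cannot be told apart. Levels of single genes are in counts-per-million of UMIs (CPM) after scaling by the TMM factors of edgeR, and sums over a list, given as unscaled CPM, leave that factor out.

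Genes of microglia contradicted the label of 1 of the 4 libraries. Csf1r, the receptor gene deleted in the null line, had 23 UMIs in saline 1, 23 in MIA 1, 11 in saline 2 and 1 in MIA 2 (0.0912 unscaled CPM, exact 95% Poisson interval 0.00231 to 0.508, counting error only). The 3 C1q genes, which encode a complement component made by microglia, were at 0 UMIs in MIA 2, where the limit of 3 UMIs for a count of 0 is 0.274 unscaled CPM each, against 20 to 37 UMIs in saline 2. A list of 12 microglial genes summed to 396, 210, 173 and 15 UMIs, and 7 of the 12 were at 0 in MIA 2. The library labelled Csf1r-null saline 2 had 10 UMIs of Csf1r and 136 of the list, where the other null libraries had 6 to 15. No label was changed here. List results are given within each replicate number, and medians printed below are also given without the library labelled MIA 2 where that moves them by over 1.5 times. Of 106 genes chosen for naming, 55 had a fitted difference that changed sign or moved by over 1.5 times with 1 wild-type library left out, 30 of them without saline 1, 29 without MIA 1, 29 without saline 2 and 36 without the library labelled MIA 2.

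A further library stood apart by its cell content. In saline 1, 28.9% of nuclei held at least 2 UMIs of a list of 10 ventral forebrain genes, against 6.76% in MIA 1, 5.50% in saline 2 and 4.09% in MIA 2. Dlx1, a homeobox gene of GABAergic neurons, was at 156 CPM in saline 1 and at 16.9 to 23.6 CPM in the other 3. Ebf1, a factor of striatal neurons, was at 670.4 CPM in saline 1 and 5.69 to 15.3 CPM in the others. Values without these ventral nuclei stand beside some of the results below, and leaving them out did not remove the difference in ventral genes. The median log2 difference of the ventral list itself went from -1.75 to -1.45. That of a list of striatal and ventral genes went from -0.90 to -0.32, and Ebf1 went from -5.12 to -3.59. Of 29 GABAergic genes in the files, 27 were tested, and their median log2 difference of -0.47 was 0.03 without ventral nuclei. Those nuclei were called by UMIs of ventral forebrain genes, so a move towards 0 was built into their removal.

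Across 14509 genes tested, edgeR's quasi-likelihood test with the replicate number as a block called 0 genes lower (0%) and 0 higher (0%) after MIA at an adjusted p of 0.05. The smallest adjusted p was 0.220. At an unadjusted p under 0.05, 1167 genes (8.04%) were lower and 529 (3.65%) higher. DESeq2 gave an adjusted p to 2695 genes, set the remaining 11814 aside by their low mean, and called 139 lower (5.16%) and 7 higher (0.26%). Its number of calls was 146 in all, 116 without ventral nuclei, 36 without saline 1, 213 without MIA 1, 77 without saline 2 and 1 without the library labelled MIA 2. With edgeR, leaving out saline 2 gave 156 calls and leaving out any other library 0. DESeq2 gave an adjusted p to 3472 genes without ventral nuclei, 738 without saline 1, 3046 without MIA 1 and 13913 without saline 2. Without the library labelled MIA 2 it gave 1 to 14992 genes, so its counts cannot be compared between settings. No gene below counts as changed by the main test. The words "lower" and "higher" describe the fitted log2 difference, MIA minus saline, with its standard error (SE).

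Direction within replicate number was also counted, since the pairs differ in software version and gene list. By that measure 3996 genes (27.5%) were lower after MIA in both pairs and 4054 (27.9%) were higher in both. Both MIA libraries lay below both saline libraries in 17.9% of genes and above both in 16.3%, against which each statement on overlap below is to be read. The differences of the pairs had a Spearman correlation of 0.122 over the genes tested, which share libraries and depth and are not independent. Of the 139 genes DESeq2 called lower, 138 were lower in both pairs, and 13 were proteasome and 20 respiratory chain genes. In the plot of both differences these lists lie mostly in the quadrant lower in both pairs, which holds 27.5% of all genes.

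**Figure D1:**
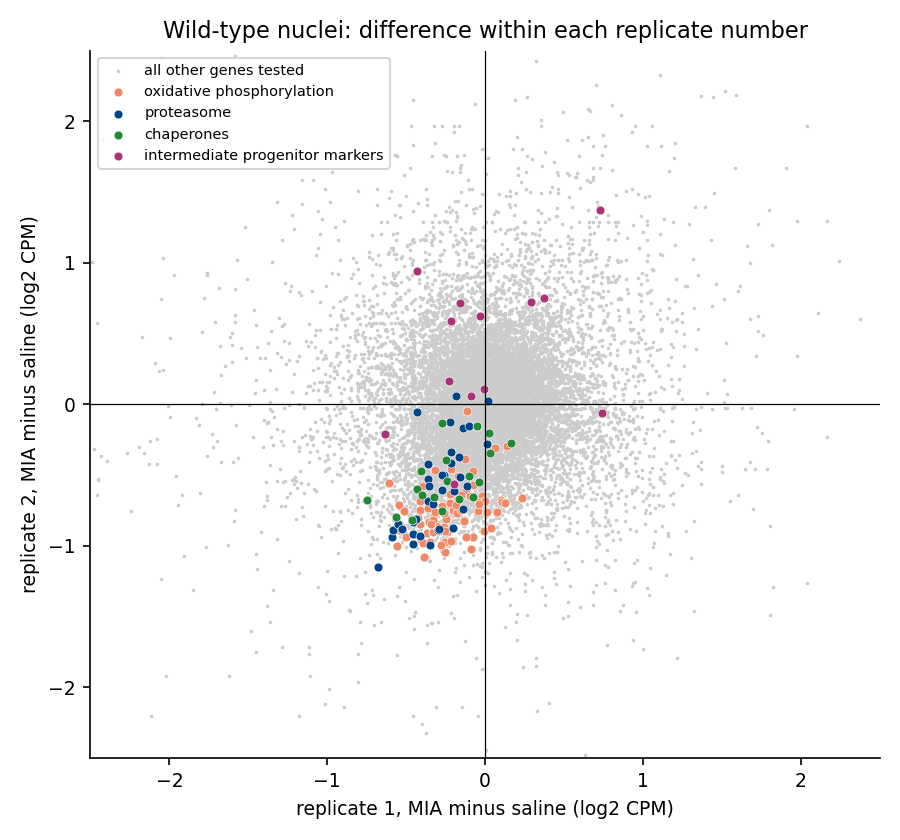
Difference in log2 CPM between MIA and saline in replicate 1 (horizontal axis) and in replicate 2 (vertical axis), 1 point per gene, for all genes tested within 2.5 of 0 on both axes and for 4 gene lists in colour. Proteasome (dark blue), oxidative phosphorylation (orange) and chaperone (green) genes lie mostly at the lower left, below 0 on both axes, where 27.5% of all genes lie, and intermediate progenitor markers (purple) lie mostly above 0 in replicate 2.

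Genes of the constitutive proteasome were lower after MIA with few exceptions. All 37 genes of the list were tested, 34 were lower in both pairs (27.5% of all genes), 28 had an unadjusted p under 0.05 in that direction (8.04% of all genes) and none in the other. Their median log2 difference was -0.44, with -0.30 in replicate 1 and -0.62 in replicate 2, beside 0.01 for all genes. DESeq2 called 13 of the 31 members it gave an adjusted p lower (5.16% of all). Without the library labelled MIA 2 the edgeR median was -0.30, without saline 1 it was -0.49 and without ventral nuclei -0.40. The study named 4 of these genes from the same libraries, within cell types and not over all nuclei, so their direction is not independent evidence.

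The proteasome core is a barrel of α rings, which gate the entry, around β rings, which hold the active sites. Psma6, an α subunit on chromosome 12 (GRCm38, 55384222 to 55418454), was at 149 CPM in saline 1, 93.3 in MIA 1, 199 in saline 2 and 89.3 in MIA 2. Both MIA libraries lay below both saline libraries, with means of 173.9 ± 35.0 CPM (SD, n = 2) after saline and 91.3 ± 2.81 after MIA. The log2 difference was -0.91 (SE 0.19, edgeR adjusted p = 0.287, DESeq2 adjusted p = 0.00394). Psmb6, the caspase-like β subunit on chromosome 11 (70525367 to 70527858), stood at 226, 151, 282 and 147 CPM in saline 1, MIA 1, saline 2 and MIA 2, again without overlap. It differed by -0.76 (SE 0.16, edgeR adjusted p = 0.287, DESeq2 adjusted p = 0.00596). Psmb5, which carries the chymotrypsin-like site, had 169, 123, 246 and 124 CPM and a log2 difference of -0.72 (SE 0.20, edgeR adjusted p = 0.302).

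Lower values were found in the core and in the cap. The other core genes named in the study, Psmb2 and Psmb4, had log2 differences of -0.66 and -0.53, and Psma7 -0.59. Without the library labelled MIA 2 these were -0.42, -0.28 and -0.34. Pomp, the chaperone that assembles the core, was at -0.67, with -0.35 in replicate 1 and -0.99 in replicate 2. Psmc1, an ATPase of the regulatory cap, was at -0.61, with -0.44 in replicate 1 and -0.81 in replicate 2. Psma3 and Psmc6, among the 3 members of highest level, were at -0.15 and -0.24, and DESeq2 called neither (adjusted p = 0.629 and 0.442). Psmc6 ranged from -0.40 without the library labelled MIA 2 to -0.08 without MIA 1. Psmd11, a cap subunit, was lower in replicate 1 (-0.18) and higher in replicate 2 (0.06), and Psmg3, an assembly factor, was at 0.02 in both. Summed, the list took 5575 unscaled CPM in saline 1, 4431 in MIA 1, 5934 in saline 2 and 4392 in MIA 2, or 5755 ± 254 (SD, n = 2) against 4411 ± 27.4. The exact permutation p was 0.333, the smallest that 2 against 2 libraries allow.

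Promoters of β subunits that carry a known motif are shown, since members of the list lie together in the differences. Sequences are RefSeq promoters of GRCm38.p6, 250 bases before to 50 after the start, 5′ to 3′ on the gene's strand. Capitals mark TGACNNNGC, searched on both strands, the core bound by NFE2L1 and NFE2L2, which drive proteasome genes in stressed cells. It overlaps the AP-1 and CRE cores at TGAC. Of 30 proteasome genes matched to a promoter, 5 held it (16.7%), and so did 1795 of 10745 tested genes (16.7%). Psmb6 lies at chr11:70525107-70525406 on the plus strand, and Psmb5 at chr14:54617946-54618245 on the minus strand.
Psmb6: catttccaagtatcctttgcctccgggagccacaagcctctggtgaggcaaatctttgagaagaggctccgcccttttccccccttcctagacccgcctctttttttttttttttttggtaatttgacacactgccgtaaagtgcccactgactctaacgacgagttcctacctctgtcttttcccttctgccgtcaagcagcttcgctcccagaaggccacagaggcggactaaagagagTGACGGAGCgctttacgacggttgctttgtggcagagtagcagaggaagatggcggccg
Psmb5: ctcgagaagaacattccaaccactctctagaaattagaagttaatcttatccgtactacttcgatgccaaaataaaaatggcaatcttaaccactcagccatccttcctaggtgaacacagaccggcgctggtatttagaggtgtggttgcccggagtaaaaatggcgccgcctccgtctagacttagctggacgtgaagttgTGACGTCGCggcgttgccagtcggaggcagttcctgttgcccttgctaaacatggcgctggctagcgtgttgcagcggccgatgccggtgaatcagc

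Nuclear genes of oxidative phosphorylation showed the same direction. All 77 were tested, 77 had a log2 difference below 0, 67 were lower in both pairs (27.5% of all genes) and 53 had an unadjusted p under 0.05 (8.04% of all). The median was -0.52, and the pairs differed in size, with -0.25 in replicate 1 and -0.77 in replicate 2. DESeq2 called 20 of 66 members lower (5.16% of all). The median was -0.29 without the library labelled MIA 2, -0.39 without saline 2 and -0.49 without ventral nuclei. The list summed to 13176, 11374, 15865.5 and 10382 unscaled CPM in saline 1, MIA 1, saline 2 and MIA 2 (exact permutation p = 0.333).

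All 5 complexes had members with large differences. Ndufa12, a subunit of complex I, was at 127, 87.4, 172 and 92.4 CPM in the same order, with a log2 difference of -0.72 (SE 0.16, edgeR adjusted p = 0.287, DESeq2 adjusted p = 0.0134). Sdhb, the iron-sulphur subunit of complex II, was at 144, 97.5, 200.1 and 100.03 CPM and differed by -0.77 (SE 0.19, edgeR adjusted p = 0.287). In both genes the MIA libraries lay below both saline libraries. Uqcrc1, a core protein of complex III on chromosome 9 (108936633 to 108949623), was at 94.8, 65.0, 103 and 62.7 CPM and differed by -0.63 (SE 0.13). Atp5g3, part of the rotor of ATP synthase, was at 176, 125, 212 and 111 CPM and differed by -0.71 (SE 0.17, DESeq2 adjusted p = 0.0134). Of the complex IV genes, Cox4i1 was at 457, 384, 654 and 351 CPM and differed by -0.57 (SE 0.22). Without the library labelled MIA 2 it was at -0.31, and DESeq2 called neither Uqcrc1 nor Cox4i1. Cox7c, also of complex IV, went both ways, from 508 to 558 CPM in replicate 1 and from 733 to 596 in replicate 2. The 13 genes of the mitochondrial genome differed from the nuclear list, with a median of 0.93 in replicate 1 and -1.12 in replicate 2. They summed to 142, 274, 311 and 147 unscaled CPM, so that the groups overlapped. Over both pairs the median was -0.12, and it was -0.90 without saline 1, -0.85 without MIA 1, 0.73 without saline 2 and 0.43 without the library labelled MIA 2.

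The motif of NRF1, a factor that binds promoters of respiratory genes, was searched by its 10-base core on both strands, with any base at 1 position, and overlaps CpG-rich sequence. It was found in 17 of 64 promoters of the list (26.6%) and in 1197 of 10745 of all tested genes (11.1%). The promoters of Uqcrc1 (chr9:108936398-108936697, plus strand) and Atp5g3 (chr2:73911277-73911576, minus strand) hold it, in capitals.
Uqcrc1: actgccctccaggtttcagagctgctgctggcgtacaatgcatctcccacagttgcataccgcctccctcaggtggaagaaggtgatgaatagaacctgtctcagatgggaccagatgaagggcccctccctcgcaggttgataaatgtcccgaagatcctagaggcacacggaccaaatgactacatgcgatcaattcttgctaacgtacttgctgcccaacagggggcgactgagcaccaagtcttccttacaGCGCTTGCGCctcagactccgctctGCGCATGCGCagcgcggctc
Atp5g3: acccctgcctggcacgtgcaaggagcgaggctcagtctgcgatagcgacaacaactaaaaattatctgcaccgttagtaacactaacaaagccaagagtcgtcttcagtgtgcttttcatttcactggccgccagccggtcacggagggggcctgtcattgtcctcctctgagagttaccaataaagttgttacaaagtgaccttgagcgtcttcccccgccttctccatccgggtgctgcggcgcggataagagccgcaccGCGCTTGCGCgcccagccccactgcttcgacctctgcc

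Chaperones, glycolytic enzymes, the cytoskeleton and histone variants were lower as well. Of 19 chaperones tested, of 23 listed, 16 were lower in both pairs (27.5% of all genes) and 10 had an unadjusted p under 0.05 (8.04% of all). The median was -0.39, and -0.25 without the library labelled MIA 2. Hspa8, the constitutive HSP70, was at 1559, 929, 1499.8 and 936 CPM in saline 1, MIA 1, saline 2 and MIA 2, and differed by -0.71 (SE 0.18, edgeR adjusted p = 0.287, DESeq2 adjusted p = 0.0057). Cct5, a subunit of the TRiC chaperonin, and Hsp90aa1, a stress-inducible HSP90, differed by -0.68 and -0.64, and DESeq2 called both lower. DESeq2 called 5 of 16 members lower (5.16% of all). Hsp90ab1, the constitutive HSP90, differed by -0.08 in replicate 1 and -0.66 in replicate 2.

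Of 29 glycolysis and citric acid cycle genes, 20 were lower in both pairs (27.5% of all genes) and 14 had an unadjusted p under 0.05 (8.04% of all). The median was -0.32, and -0.17 without saline 2. Gapdh, used in many assays as a constant reference, was at 879 and 555 CPM in replicate 1 and at 999 and 581 in replicate 2, with a log2 difference of -0.72 (SE 0.19, DESeq2 adjusted p = 0.00957). The malate dehydrogenases Mdh1 and Mdh2 differed by -0.73 and -0.64, and Pkm, a pyruvate kinase, by -0.41. The list took 3559 and 3543 unscaled CPM after saline and 2800 and 2690.1 after MIA, a spread of 11.8 and 78.0 (SD, n = 2) around a difference of 806.

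In the cytoskeleton list, 19 of 26 genes were lower in both pairs (27.5% of all genes), 17 at an unadjusted p under 0.05 (8.04% of all) and 9 by DESeq2 (5.16% of all). The median was -0.45, and it was -0.30 without the library labelled MIA 2 and -0.68 without MIA 1. Tuba1a, the main α-tubulin of young neurons, was at 7416 CPM in saline 1, 5149 in MIA 1, 8759 in saline 2 and 4453 in MIA 2 and differed by -0.75 (SE 0.22, DESeq2 adjusted p = 0.00526). Tuba1b, Stmn1, which destabilises microtubules, and Pfn1, which binds actin, differed by -0.74, -0.64 and -0.62, and Stmn1 by -0.39 without the library labelled MIA 2. Actb, β-actin, differed by -0.45 (SE 0.20) and was not called by DESeq2 (adjusted p = 0.0731). All 9 histone variant genes were lower in both pairs (27.5% of all genes), 7 of them at an unadjusted p under 0.05 (8.04% of all). H3f3a, which encodes histone H3.3, was at 1394 and 987 CPM in replicate 1 and at 1712 and 943 in replicate 2, and H2afz, which encodes H2A.Z, at 987 and 621 and at 1003 and 667. Both were called lower by DESeq2 (adjusted p = 0.0119 and 0.0247), and H3f3b, a second H3.3 gene, was not (adjusted p = 0.349).

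**Figure D2:**
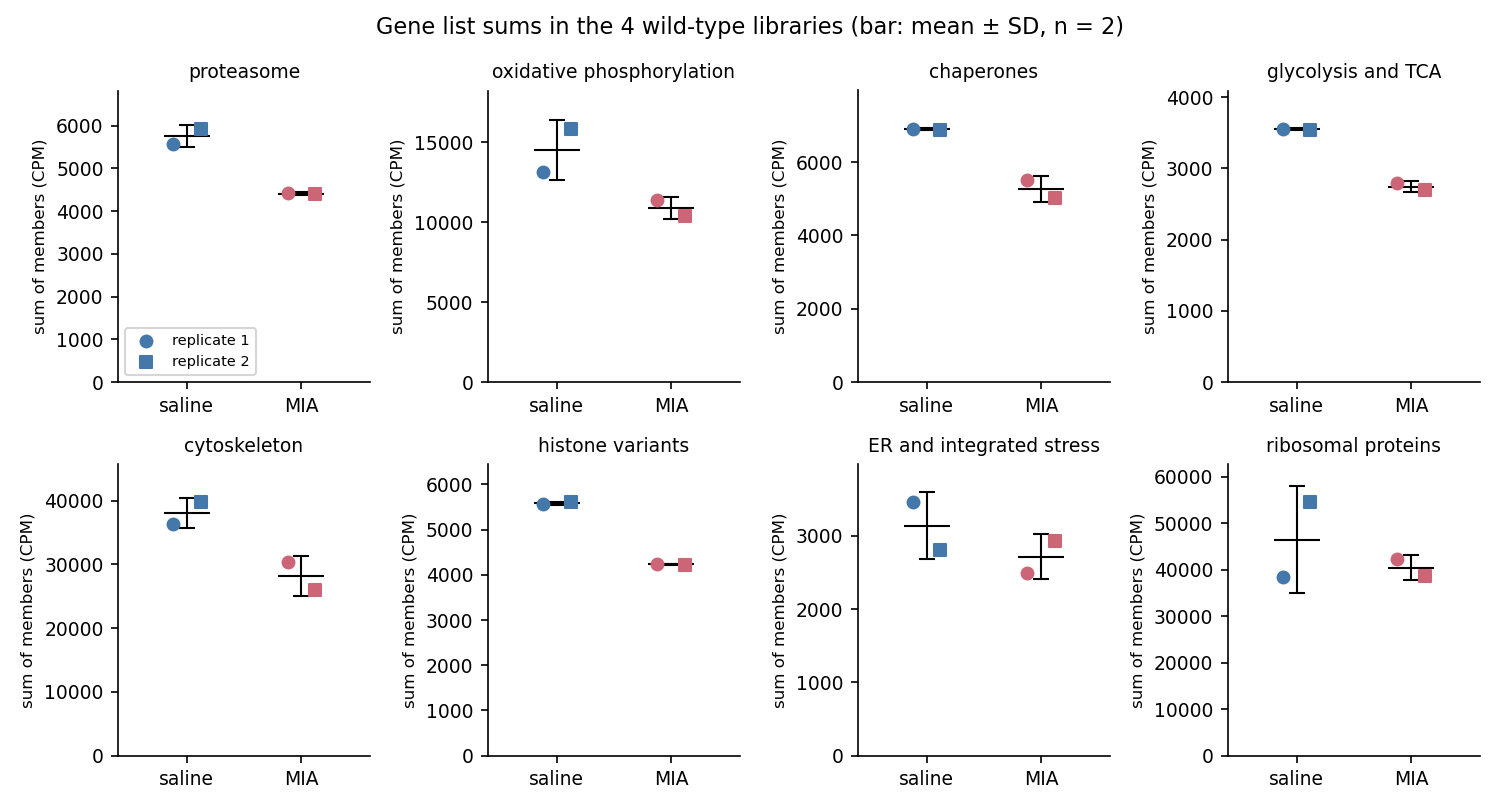
Summed level of 8 gene lists in unscaled CPM, for saline (blue) and MIA (red), with circles for replicate 1, squares for replicate 2 and bars for the mean ± SD (n = 2). The 2 MIA points lie below the 2 saline points for the proteasome, oxidative phosphorylation, chaperones, glycolysis and citric acid cycle, cytoskeleton and histone variants, and the groups overlap for the stress and ribosomal protein lists.

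Genes of the endoplasmic reticulum and the integrated stress response were less uniform. Of 33 tested, of 35 listed, 17 were lower in both pairs (27.5% of all genes) and 8 had an unadjusted p under 0.05 (8.04% of all). The median was -0.28, with -0.49 in replicate 1 and -0.07 in replicate 2. It rested on saline 1, without which it was -0.02, and was -0.17 without MIA 1 and -0.44 without saline 2. Manf, a secreted protein of the stressed reticulum, was at 235, 127, 246 and 159.6 CPM and differed by -0.76 (SE 0.18, DESeq2 adjusted p = 0.00957). Pdia4, a disulphide isomerase, and Asns, asparagine synthetase and a target of ATF4, differed by -0.65 and -0.74, and Pdia4 by -0.40 without saline 1. Hsp90b1 and Canx, both folding factors, went down in replicate 1 and not in replicate 2, at -0.51 and 0.01, and at -0.25 and 0.11. Atf4 and Ddit3, the factors that carry the stress response, were at 0.13 each with edgeR unadjusted p above 0.05. The sums of the list overlapped, at 3459 and 2810.2 unscaled CPM after saline and 2493 and 2928 after MIA.

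Ribosomal protein genes took opposite directions in the 2 pairs. The median over 80 tested genes was 0.13 in replicate 1 and -0.68 in replicate 2, 21 were lower in both pairs (27.5% of all genes) and 9 had an unadjusted p under 0.05 in that direction (8.04% of all), while 0 were higher in both (27.9% of all). The fitted difference over both pairs was below 0 for 77 of the 80. Rpl3, of the large subunit, was lower in both, at 381 and 320.5 CPM in saline 1 and MIA 1, and at 522 and 299.5 CPM in saline 2 and MIA 2. The list took 3.83% of UMIs in saline 1, 4.23% in MIA 1, 5.46% in saline 2 and 3.86% in MIA 2. Saline 2 stood above the other 3 libraries in this share, and its part in the lists above was not tested. The ribosomal median over both pairs was -0.28, and it was -0.55 without saline 1, -0.53 without MIA 1, 0.04 without saline 2 and -0.04 without the library labelled MIA 2. Without saline 2 the medians were -0.38 for the proteasome and -0.39 for oxidative phosphorylation.

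The list shares were also compared in nuclei of like depth. In nuclei of 2000 to 4000 UMIs, proteasome genes took 0.560% of UMIs in saline 1 and 0.448% in MIA 1, and 0.586% in saline 2 and 0.424% in MIA 2. Oxidative phosphorylation genes took 1.32% and 1.14% in replicate 1, and 1.55% and 0.962% in replicate 2. The MIA library lay below the saline library of its replicate in all 4 depth classes of both lists. In 3 of the 4 libraries the shares were lower in deeper nuclei, and in saline 2 the proteasome share was 0.592% in the shallowest class and 0.623% in the deepest.

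**Figure D3:**
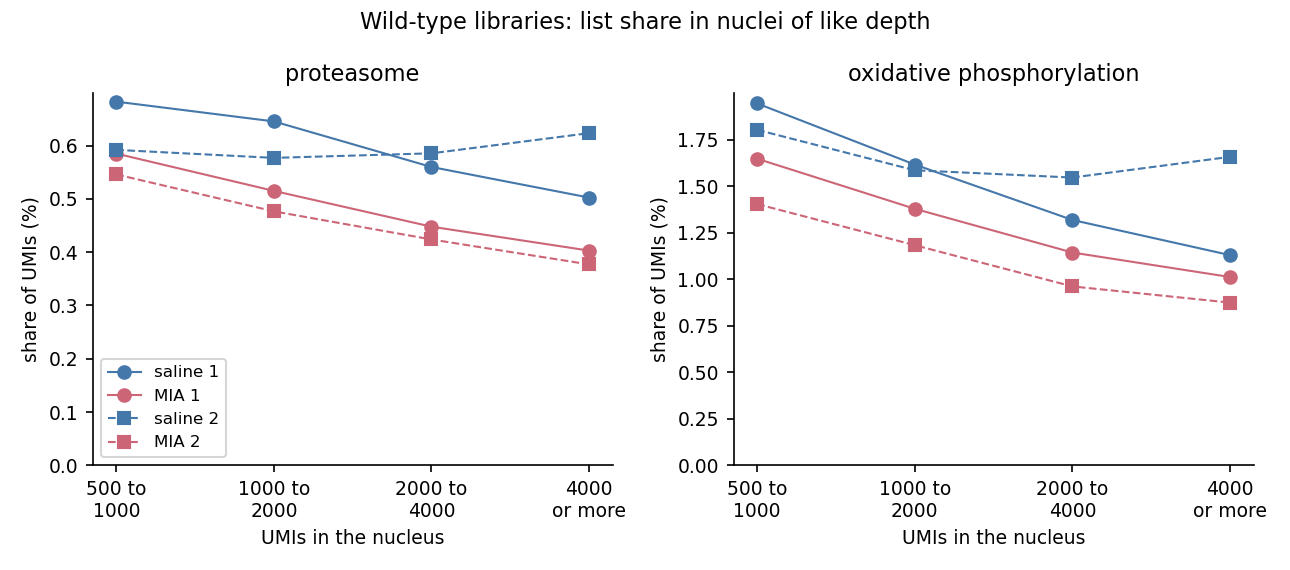
Share of UMIs, in percent, taken by proteasome (left) and oxidative phosphorylation (right) genes in nuclei grouped by their number of UMIs, for saline (blue) and MIA (red), replicate 1 with solid lines and circles and replicate 2 with dashed lines and squares. Within each replicate the MIA line lies below the saline line at every depth, and in saline 2 the share is not lowest in the deepest nuclei.

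Free RNA could be measured in replicate 1 only, whose files list droplets without nuclei. Droplets of at most 100 UMIs numbered 711486 in saline 1 and 792542 in MIA 1, and held 6279486 and 3319257 UMIs. Proteasome genes took 0.849% of them in saline 1 and 0.924% in MIA 1, and oxidative phosphorylation genes 3.30% and 3.01%. Ribosomal protein genes took 14.2% and 10.2%. For proteasome and ribosomal protein genes the order of the libraries in free RNA was the reverse of that in nuclei. For oxidative phosphorylation genes it was the same. These shares do not give the amount of free RNA in a nucleus droplet, and its part in the nuclear values was not tested.

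The lower genes with the smallest p were of mixed function. Gstm7, a glutathione transferase, was at 37.7 CPM in saline 1, 15.1 in MIA 1, 34.0 in saline 2 and 17.5 in MIA 2, with a log2 difference of -1.15 (SE 0.16, edgeR adjusted p = 0.220). Csnk2b, the regulatory subunit of casein kinase 2, was at 133, 82.7, 170.5 and 81.8 CPM and differed by -0.87 (SE 0.16, DESeq2 adjusted p = 0.00238). Cst3, the secreted protease inhibitor cystatin C, was at 441, 234, 515 and 291 CPM and differed by -0.87 (SE 0.17, DESeq2 adjusted p = 0.00118). In all 3 the groups did not overlap. The other genes that the rule selected, Rtl8a, Plrg1, Nsmce1, Nmral1, Sf3b4 and Tmem176b, differed by -0.65 to -0.83, and Plrg1 and Sf3b4 encode splicing factors. The smallest DESeq2 adjusted p of all, 0.000464, belonged to Gm42418, named here after its values were seen, which overlaps a ribosomal RNA repeat and fell from 5763 to 3683 CPM in replicate 1 and from 5787 to 2940.1 in replicate 2.

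The adult globin genes tested were lower after MIA in both pairs, and 1 of the embryonic ones, Hba-x, was higher in both. Adult α-globin Hba-a1 was at 152 CPM in saline 1, 84.9 in MIA 1, 103 in saline 2 and 60.3 in MIA 2, and its near-identical copy Hba-a2 at 111, 57.4, 82.4 and 44.8, so that reads are uncertain between them. Both were lower in both pairs without overlap between groups, by -0.81 (SE 0.15) and -0.92 (SE 0.14), each with an edgeR adjusted p of 0.287. DESeq2 gave an adjusted p to 2 globin genes and called 1 of them, Hba-a1, lower (adjusted p = 0.00526). Adult β-globins Hbb-bs and Hbb-bt differed by -1.02 (SE 0.32) and -1.08 (SE 0.26), and Hbb-bs by -0.67 without saline 1. The study named all 4 from the same libraries, within cell types and not over all nuclei. Hba-x, the embryonic α-like globin at the 5′ end of the same cluster on chromosome 11 (32276400 to 32278116), was chosen after its values were seen. It had 23 UMIs in saline 1, 371 in MIA 1, 20 in saline 2 and 113 in MIA 2, or 1.69, 20.1, 1.85 and 10.2 CPM, a log2 difference of 3.17 (SE 0.69, edgeR adjusted p = 0.287), which was 2.02 without MIA 1.

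The embryonic β-like globin Hbb-y did not repeat this in the libraries as labelled. It was at 5.87 CPM in saline 1, 44.0 in MIA 1, 5.08 in saline 2 and 4.15 in MIA 2, higher in the first pair and lower in the second, and its log2 difference of 2.18 was -0.96 without MIA 1. Under the Csf1r-null label it was at 2.82 unscaled CPM in saline 1, 83.7 in MIA 1, 38.3 in saline 2 and 73.9 in MIA 2. The libraries labelled wild-type MIA 2 and Csf1r-null saline 2 are those whose microglial genes contradict their labels. Whether their treatment labels hold was not tested. The last member, Hbb-bh1, did not pass the filter on low counts, with 1, 6, 0 and 0 UMIs. Globin messenger RNA is made by red blood cells, and 2 other red cell genes of 8 listed passed the filter. Of the defining ones, Slc4a1, Hemgn and Epb42 had at most 1 UMI in any of the 4 libraries. Nuclei with at least 2 globin UMIs made up 25.6% in saline 1, 10.5% in MIA 1, 15.52% in saline 2 and 9.36% in MIA 2. In the droplets without nuclei of replicate 1 the globin list took 0.139% in saline 1 and 0.102% in MIA 1, and the part of free RNA was not tested.

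Adult α-globins were the genes called in the test of a difference in response between genotypes. In the libraries labelled Csf1r-null, Hba-a1 was higher after MIA by 1.27 and Hba-a2 by 1.01 on the log2 scale. The interaction test, wild-type response minus null response, called these 2 of 14509 genes (0.0138%), at -2.07 (SE 0.22) and -1.93 (SE 0.20) with an edgeR adjusted p of 0.0248 each. DESeq2 also called 2, and called 2 without wild-type MIA 2. With edgeR the count was 0 without the replicate block, 0 with the mitochondrial and ribosomal share as a covariate, 0 with any of the libraries labelled wild-type MIA 1, wild-type MIA 2, Csf1r-null saline 1, Csf1r-null saline 2 or Csf1r-null MIA 2 left out, 1 without Csf1r-null MIA 1 and 27 without wild-type saline 2. Hba-x was higher after MIA in both genotypes, by 3.17 and 3.96, with an interaction adjusted p of 0.936. Under the Csf1r-null label, nuclei with at least 2 globin UMIs made up 9.32% in saline 1 and 6.28% in MIA 1. In replicate 2 they made up 3.82% after saline and 6.76% after MIA. In droplets without nuclei of null replicate 1 the globin list took 0.111% after saline and 0.0736% after MIA.

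**Figure D4:**
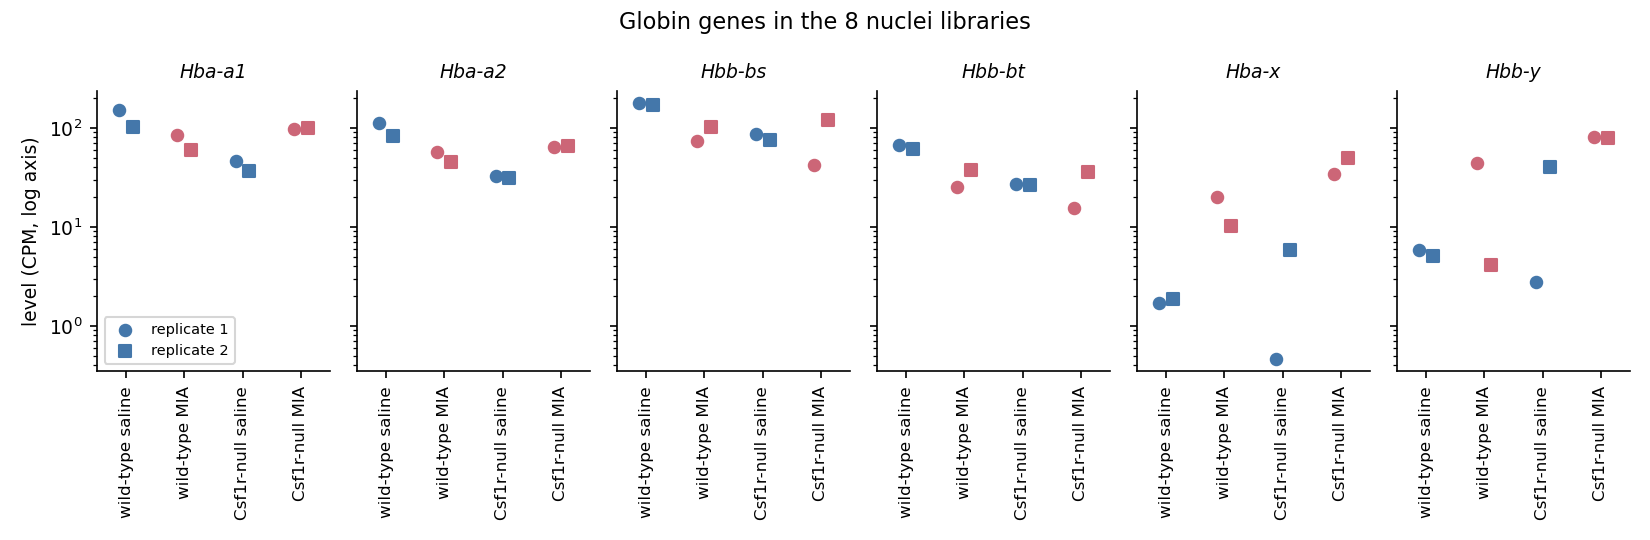
Level of 6 globin genes in the 8 nuclei libraries, in CPM on a log axis, for saline (blue) and MIA (red), with circles for replicate 1 and squares for replicate 2. In the libraries labelled wild-type the 4 adult genes lie lower after MIA and Hba-x lies higher, and in the libraries labelled Csf1r-null Hba-a1 and Hba-a2 lie higher after MIA.

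No gene of the housekeeping lists passed the interaction test after adjustment. In the libraries labelled Csf1r-null the proteasome median was -0.03, from -0.19 in replicate 1 and 0.20 in replicate 2, and that of oxidative phosphorylation was -0.08, from -0.42 and 0.23. The chaperone median was -0.09 in replicate 1 and 0.17 in replicate 2 and that of the cytoskeleton -0.25 and 0.20. In replicate 1 these lists thus lay below 0 in both genotypes, and in replicate 2, which holds both libraries with contradicting microglial genes, they lay below 0 under the wild-type label and above 0 under the Csf1r-null label. For Psma6 the interaction was -0.81 and for Psmb6 -0.79, each with an edgeR adjusted p of 0.909. At an unadjusted p under 0.05 for the interaction, in either direction, stood 19 of 37 proteasome, 10 of 19 chaperone, 17 of 77 oxidative phosphorylation and 10 of 29 glycolysis and citric acid cycle genes, beside 4.95% of all genes. Wild-type responses of the remaining genes were therefore not shown to be particular to wild type. The 1 library whose microglial genes contradict its label lies on each side of this contrast, and leaving out both gave 0 interaction calls and 3 calls in wild type.

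Markers of intermediate progenitors did not move together. All 13 were tested, 3 were higher in both pairs (27.9% of all genes) and 2 lower in both (27.5% of all), shares no larger than those of all genes. The median was 0.23, with -0.09 in replicate 1 and 0.59 in replicate 2, and it was 0.42 without saline 1, 0.42 without MIA 1, 0.02 without the library labelled MIA 2 and -0.03 without saline 2. Eomes, the T-box factor that defines intermediate progenitors, was at 67.8 CPM in saline 1, 87.8 in MIA 1, 64.2 in saline 2 and 108 in MIA 2. It differed by 0.57 (SE 0.14, edgeR adjusted p = 0.287) and was 1 of the 7 genes DESeq2 called higher (adjusted p = 0.0402). Without the library labelled MIA 2 the difference was 0.37. The proneural factors Neurog2 and Neurog1 were at 138, 169, 166 and 274 CPM, and at 6.76, 11.3, 8.41 and 21.99 CPM, with differences of 0.51 (SE 0.14) and 1.07 (SE 0.24). In all 3 the MIA libraries lay above both saline libraries. Dll3 and Tmem158, also on the list, were lower in both pairs, and Insm1 and Elavl4 differed by -0.03 and -0.02.

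Of 20 apical progenitor genes, 6 were lower (27.5% of all genes) and 4 higher (27.9% of all) in both pairs, near the shares of all genes, and their median of 0.01 ranged from -0.22 without the library labelled MIA 2 to 0.29 without saline 1. Fabp7, a lipid carrier of radial glia, was at 496, 217, 343 and 227 CPM and differed by -0.92 (SE 0.22, DESeq2 adjusted p = 0.0057), and was the 1 member that DESeq2 called. Without saline 1 its difference was -0.50, and without ventral nuclei it was -0.99. Emx2, a factor of dorsal cortex, was at 28.7, 39.3, 34.9 and 49.7 CPM and differed by 0.48 (SE 0.14, edgeR adjusted p = 0.303). Of 46 cell cycle genes, 19 were lower in both pairs (27.5% of all genes), with medians of -0.49 in replicate 1 and 0.05 in replicate 2, and the median of -0.24 was -0.10 without ventral nuclei, 0.04 without saline 1 and -0.48 without saline 2. Ube2c and Cdk1, which act in mitosis, differed by -0.76 and -0.52, which were -0.35 and -0.33 without saline 1, and Ccnd2, a G1 cyclin, by -0.42, which became 0.08 without ventral nuclei.

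Genes of neuronal development that the study named were higher in both pairs. Flrt1, a repulsive adhesion molecule of migrating neurons, was at 53.4, 84.3, 44.6 and 71.8 CPM in saline 1, MIA 1, saline 2 and MIA 2 and differed by 0.67 (SE 0.18, edgeR adjusted p = 0.302). Tenm4, a teneurin, was at 156, 269.8, 188 and 241 CPM and differed by 0.56 (SE 0.18, edgeR adjusted p = 0.314, DESeq2 adjusted p = 0.0501), and by 0.27 without saline 1. Auts2, a neurodevelopmental gene, was at 2213, 2719, 2673 and 3154 CPM and differed by 0.27 (SE 0.18, edgeR adjusted p = 0.594). The groups did not overlap for Flrt1 and Tenm4, and for Auts2 they were separated by 2673 to 2719 CPM. The study named these from the same libraries but within single cell types, whereas the values here are sums over all nuclei. Of the 10 genes of the FLRT, teneurin and latrophilin families, 4 were higher in both pairs (27.9% of all genes) and 3 lower (27.5% of all), with a median of 0.16, which was 0.05 without saline 1 and 0.26 without saline 2. The latrophilins Adgrl2 and Adgrl1 differed by 0.32 and 0.23, which were 0.10 and 0.01 without saline 1, and Adgrl2 was at -0.02 in replicate 2. Flrt2 was lower in both pairs (-0.56, SE 0.20, and -0.24 without the library labelled MIA 2), and Flrt3 and the latrophilin Adgrl3 were at -0.12 and -0.07.

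Wider lists of guidance and polarity genes had small medians. Of 47 axon guidance genes tested, of 51 listed, 21 were higher in both pairs (27.9% of all genes), 4 at an unadjusted p under 0.05 (3.65%), with a median of 0.10, or 0.17 without the library labelled MIA 2. Nrp2, a semaphorin coreceptor, was at 15.4, 19.5, 19.49 and 33.7 CPM and differed by 0.58 (SE 0.18), or 0.27 without the library labelled MIA 2, and Sema5a, a semaphorin, by 0.35 (SE 0.12). Dcc, the netrin receptor, differed by 0.42, while Robo2 and Epha5, of the highest levels, were at 0.09 and 0.02. Of the 47 axon guidance genes, 14 had a difference below 0, the lowest at -2.02. Of 30 noncanonical Wnt genes, 9 were higher (27.9% of all genes) and 5 lower (27.5% of all) in both pairs, near the shares of all genes or below them. The members named by the rule include Celsr1 at 0.44 (SE 0.13), Celsr2 at 0.43 (SE 0.15) and Vangl2 at 0.32 (SE 0.13), all 3 of the planar polarity pathway, and without the library labelled MIA 2 Celsr1 was at 0.26, and without saline 2 Vangl2 was at 0.20. Of 40 chromatin genes linked to autism, 22 were higher in both pairs (27.9% of all genes) and 3 lower (27.5% of all), with a median of 0.15 (0.09 without the library labelled MIA 2), led by Ankrd11 at 0.44 (SE 0.14, edgeR adjusted p = 0.310).

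The higher genes with the smallest p were of mixed function. Gm15991, annotated as an antisense RNA, was at 13.2, 26.6, 13.4 and 31.4 CPM and differed by 1.12 (SE 0.16, edgeR adjusted p = 0.220). Its reads cannot be told apart from those of a partner gene unless counting used the strand, which is not given in the sources used here. Creb5, a transcription factor of the CREB family on chromosome 6 (53287270 to 53700376), was at 63.5, 98.8, 55.1 and 97.8 CPM and differed by 0.74 (SE 0.14, edgeR adjusted p = 0.287, DESeq2 adjusted p = 0.00693). In both, each MIA library exceeded both saline libraries. Etl4, Rhbdl3, Kif26b, Spata2, Nhsl1, Fam53b, Spaca6, Srrm4os and the scaffold gene Grip2 differed by 0.51 to 0.92, and DESeq2 called Nhsl1 and Spaca6 higher.

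The difference varied with the span of the gene. Over 4014 genes spanning under 10 kb, the median was -0.08, over 4451 of 10 to 30 kb it was -0.02, over 3905 of 30 to 100 kb it was 0.05 and over 2130 of more than 100 kb it was 0.10. Within replicates, the shortest and longest classes had medians of -0.08 and 0.14 in replicate 1 and -0.06 and 0.06 in replicate 2. Of the shortest, 36.3% were lower in both pairs and 21.5% higher in both, and of the longest 13.5% and 37.9%. In the libraries labelled Csf1r-null the same medians went from -0.10 to 0.10 in replicate 1 and from 0.07 to -0.08 in replicate 2. The share of UMIs in genes over 100 kb was 15.8% in saline 1, 17.7% in MIA 1, 14.1% in saline 2 and 15.7% in MIA 2. The genes DESeq2 called lower had a median span of 10102 bases, and the part of gene length in the lists above was not tested.

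**Figure D5:**
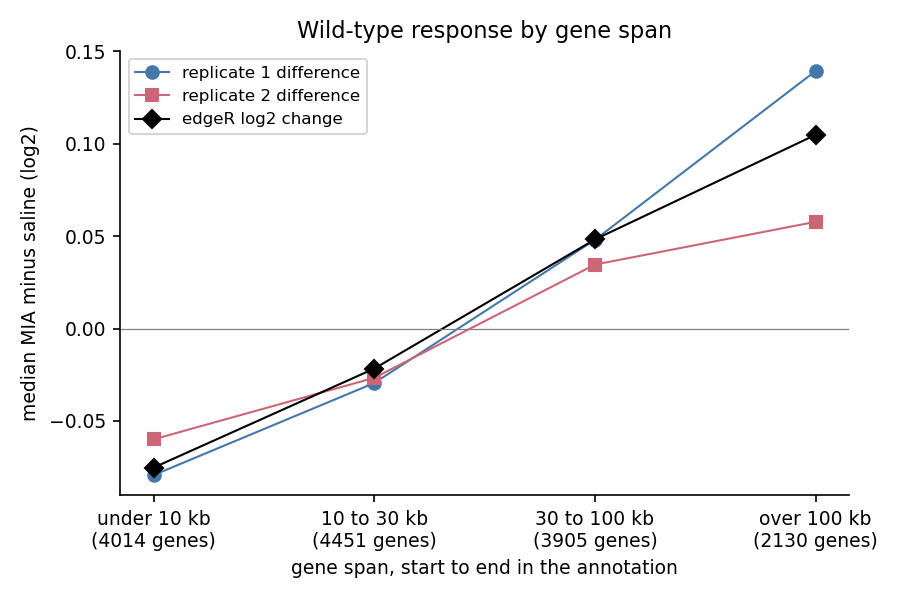
Median log2 difference, MIA minus saline, of genes in 4 classes of span, for replicate 1 (blue circles), replicate 2 (red squares) and edgeR over both (black diamonds). All 3 lines go from below 0 for genes under 10 kb to above 0 for genes over 100 kb, with edgeR medians of -0.08 and 0.10.

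Interferon targets showed no difference that could be detected at this depth. Of 30 listed, 17 passed the filter, 5 were lower (27.5% of all genes) and 4 higher (27.9% of all) in both pairs, and none had an unadjusted p under 0.05 in either direction. Isg15, a ubiquitin-like protein that interferon raises strongly, was at 2.13, 0.921, 1.57 and 1.26 CPM, and Ifitm3, an antiviral membrane protein, at 1.54, 0.217, 1.48 and 1.17 CPM, with edgeR adjusted p of 0.499 and 0.440. Stat2 and Adar differed by 0.15 and 0.22, Stat2 by -0.09 without the library labelled MIA 2 and Adar by 0.08 without saline 1. The list summed to 175 and 160.1 unscaled CPM after saline and 174 and 165 after MIA. Among 20 receptor and sensor genes tested, of 26 listed, 5 were lower (27.5% of all genes) and 9 higher (27.9% of all) in both pairs. Tlr3 was under 1.2 CPM in every library, at 0.734, 0.921, 0.462 and 1.17.

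The viral process genes named in the study were lower in both pairs. Ppia, cyclophilin A, was at 1081 and 783 CPM in replicate 1 and 1379 and 782 CPM in replicate 2 and differed by -0.64 (SE 0.19, DESeq2 adjusted p = 0.0198). Tsg101, which sorts membrane cargo, and Banf1, a DNA-binding protein of the nuclear envelope, differed by -0.50 (SE 0.16) and -0.55 (SE 0.19), and DESeq2 called neither (adjusted p = 0.0651 and 0.0833). Without the library labelled MIA 2 they were at -0.32 and -0.36, and Banf1 was at -0.32 without saline 2. The median of the 3 was -0.55, and -0.36 without the library labelled MIA 2. They were named from the same libraries, within cell types and not over all nuclei.

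Markers of other cell types differed between libraries. The sum of the endothelial and pericyte list was 39.9 and 30.8 unscaled CPM after saline and 26.6 and 62.7 after MIA. That of the meningeal list was 18.7 and 17.6 after saline and 8.61 and 11.2 after MIA. Microglial genes were lower in both pairs for all 10 tested (27.5% of all genes), with a median of -1.65, which was -0.48 without the library labelled MIA 2 and -0.92 without saline 1. Without MIA 1 the remaining MIA library held 7 of the 12 at 0 UMIs, and the fitted value is no bound. The Cajal-Retzius list, with Reelin-making cells of the outermost layer, was at 84.4 and 90.8 after saline and 133 and 93.5 after MIA. Their part in the gene lists above was not tested.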

How the data were processed

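Nuclei were counted with a 3′ droplet kit. The authors deposited whole-number UMI counts per gene and barcode, not normalised, made with Cell Ranger against mm10. The file headers name version 3.1.0 for replicate 1, which lists 31053 genes and all 6794880 barcodes, and 6.0.1 for replicate 2, which lists 32285 genes and called barcodes only. Replicate number, software and barcode filter cannot be told apart. Genes were joined by Ensembl ID (30406 genes), and nuclei, defined by a minimum of 500 UMIs and 200 genes per barcode, were summed per library. Doublets were not removed in the main result, and removing the highest Scrublet scores (scanpy 1.11.5) was an alternative. Coordinates and spans are those of GENCODE on GRCm38, and promoters those of RefSeq.

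Counts were filtered by filterByExpr, scaled by TMM and fitted with edgeR 4.0.16 (R 4.3.3) in 1 quasi-likelihood model over the 8 nuclei libraries, with group and replicate number, which leaves 3 residual degrees of freedom. Benjamini-Hochberg adjustment ran over all genes tested, at a threshold of 0.05. DESeq2 1.42.0 was an alternative, and genes it left without an adjusted p were left so. Replicate numbers were taken to pair the libraries, since deviations from the group means correlated between every pair of groups, at 0.50 to 0.68. Differences within a replicate are of log2 CPM with a prior count of 2. List sums were compared by a two-sided exact permutation test. The model was also run on simulated counts, and the outcome is not given here.

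The gene lists, and the choice of this comparison, were made with earlier results of these data known. Named genes are those the study named, the 12 higher and 12 lower genes of smallest p with the same sign in both replicates and a mean of at least 10 CPM, none of them called by edgeR, the 3 members of highest level and 2 of smallest p of each list, and genes called in the interaction test. Some genes that the rule selects are not reported here. Genes named beyond this rule, among them Dlx1, Asns, Pomp, Psmc1, Psmd11, Psmg3, Dcc, Flrt3, Adgrl3, Tmem158, Atf4, Ddit3, Ebf1, Hba-x, Hbb-y and Gm42418, were chosen after their values were seen. Alternatives were other size factors, no filter, a minimum of 1000 UMIs, Scrublet, ventral nuclei left out, a covariate of mitochondrial and ribosomal share, those genes and the globins left out, no replicate block, the 4 wild-type libraries alone, and each library left out in turn. Intervals cover counting error only.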

Additional observations from a re-analysis of the deposited data

Results flagged for a closer look

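The difference between MIA and saline of the adult α-globins differed between libraries labelled wild-type and Csf1r-null, by a test of the difference itself. For Hba-a1 the wild-type response minus the Csf1r-null response was -2.0725 on the log2 scale, and for Hba-a2 it was -1.933, with an edgeR adjusted p of 0.0248 each. Both genes were lower in both wild-type pairs and higher in the Csf1r-null libraries as a group, and reads of these near-identical copies are uncertain between them. The edgeR count of calls was 0 without wild-type MIA 1, wild-type MIA 2, Csf1r-null saline 1, Csf1r-null saline 2 or Csf1r-null MIA 2, and was 1 without Csf1r-null MIA 1, 3 without wild-type saline 1 and 27 without wild-type saline 2. Microglial genes contradict the genotype labels of wild-type MIA 2 and Csf1r-null saline 2, and with both left out the edgeR count was 0. DESeq2 called 2 genes, and 2 without wild-type MIA 2.

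Over the 6 globin genes tested, the median of the wild-type minus the Csf1r-null response was -0.9052. It is given because the median of the list was below 0 in both wild-type pairs and above 0 in both Csf1r-null pairs, and that difference was not tested.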

How the results depend on the processing

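Counts of genes called between MIA and saline in wild type depended on the tool and the libraries. Against 0 in the edgeR fit, 12 were called with only the 4 wild-type libraries and the replicate block, 30 with no filter on low counts and 146 by DESeq2. Among alternatives chosen after seeing the data, 2 were called with ventral nuclei left out in the 4 wild-type libraries with the block, 116 by DESeq2 without ventral nuclei, and 3 with both libraries of contradicting microglial genes left out. Leaving out 1 library at a time gave 0 to 213 calls, with 156 in edgeR without wild-type saline 2, and in DESeq2 36, 213, 77 and 1 without saline 1, MIA 1, saline 2 and the library labelled MIA 2. DESeq2 gave an adjusted p to 738, 3046, 13913 and 14992 genes in those fits, so its counts cannot be compared between them. Without the replicate block edgeR called 0 genes in wild type (802 at an unadjusted p under 0.05, against 1696 with it).

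The interaction with genotype, 2 genes, became 0 without the replicate block, 0 with the mitochondrial and ribosomal share as a covariate, and 0 with mitochondrial, ribosomal and globin genes left out, which removes the called genes. It became 0 with both contradicting libraries left out, and 0 to 27 with 1 library left out, with 3, 4, 26 and 2 in DESeq2 without wild-type saline 1, MIA 1, saline 2 and MIA 2.

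With 1 library left out, the median of the globin list ranged from -1.01 to -0.66 and that of histone variants from -0.49 to -0.36. The latter was -0.32 without ventral nuclei. The range was -0.62 to -0.30 for the proteasome, -0.72 to -0.29 for oxidative phosphorylation, -0.52 to -0.25 for chaperones, -0.41 to -0.17 for glycolysis, -0.68 to -0.30 for the cytoskeleton, -0.44 to -0.02 for the stress list and -0.55 to 0.04 for ribosomal proteins. Of 37 lists, 19 kept the sign of their median under all settings run for them, which were 18 for mitochondrial, ribosomal and globin genes, left out in 1 setting, and 19 for the others. Of 1999 results of 106 named genes, 1912 kept direction and side of the threshold, 61 passed it and 26, of 15 genes, reversed. With 1 library left out these ranged from -0.96 to 3.48 for Hbb-y, -0.24 to 0.0518 for Lhx2, -0.27 to 0.0893 for Ptprz1, -0.0669 to 0.70 for Cntn2, -0.11 to 0.15 for Epha5, -0.93 to 0.21 for Ccnd2, -0.0745 to 0.26 for Mcm7, -0.55 to 0.0484 for Hsp90b1, -0.20 to 0.0621 for Canx, -0.0858 to 0.39 for Stat2, -0.19 to 0.13 for Insm1, -0.14 to 0.11 for Elavl4, -0.31 to 0.0456 for Rhoa, -0.25 to 0.0947 for Cox7c and -0.19 to 0.42 for Rpl41. With the covariate Epha5 was -0.0238, Elavl4 0.00395 and Cox7c 0.0539, and without ventral nuclei Ccnd2 was 0.0761 and Elavl4 0.0354. The causes were not tested.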

Other observations

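In droplets without nuclei of replicate 1, which the comparisons do not use, the list of 12 microglial genes took 286 UMIs (0.00455%) in saline 1 and 3017 UMIs (0.0909%) in MIA 1, the reverse of the order in nuclei, where it took 396 and 210 UMIs.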
